A study of Mus musculus with 20 samples.

Results

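The comparison is between haematopoietic stem and progenitor cells carrying the Idh2R140Q allele and cells carrying the Idh1R132H allele, 8 of the 20 libraries in the series. The 4 columns of the deposited table marked for R140Q and the 4 marked for R132H were taken, and the pools were paired by their number. The R140Q columns carry a prefix naming Idh1, and were placed by the mutation number, since the labels name R140Q only for Idh2. Of 46078 genes in the table, 14042 had a mean of at least 1 TPM over the 8 libraries and were compared.

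The cells were LSK cells, meaning lineage-negative, cKit-positive and Sca1-positive cells of the bone marrow, which include the haematopoietic stem cells and the multipotent progenitors that they give rise to. For each library, 2 C57Bl/6J mice aged 3 to 4 months were pooled and total RNA was sequenced. The Idh2R140Q group (n = 4 pools) was heterozygous for Idh2LSL-R140Q and carried Vav-Cre. The Idh1R132H group (n = 4) was heterozygous for Idh1LSL-R132H and carried Vav-Cre. The WT group (+/+, n = 4), used here as a common level, carried Vav-Cre and no mutant Idh allele. LSL marks a stop cassette between loxP sites that Cre removes, so that the mutant is expressed from its own locus. Vav-Cre is thus common to all 3 groups. The Idh2R172K group (n = 4), heterozygous for Idh2LSL-R172K with Vav-Cre, entered the fit for its estimate of spread, and the Tet2KO group (Tet2-/-, n = 4) carries no Cre in its label and was used only in an alternative fit and for single values. Vav-Cre recombines in blood-forming cells early in development, so mature blood cells of the mice that carry Vav-Cre descend from recombined cells too.

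IDH1 works in the cytosol and peroxisomes and IDH2 in mitochondria, and both convert isocitrate to 2-oxoglutarate. The R132 and R140 residues lie in the active site, and their substitution gives an enzyme that makes 2-hydroxyglutarate. This metabolite competes with 2-oxoglutarate in dioxygenases such as the TET enzymes, which oxidise methylcytosine in DNA, and the JmjC histone demethylases. Both mutations occur in human acute myeloid leukaemia.

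The sequences below show where the alleles differ, as the mm10 reference coding strand around the targeted arginine codon, which is in capitals. The R140 codon of Idh2 lies at chr7:80099112-80099114 (minus strand), in exon 4 of 11 of the transcript used, and the R132 codon of Idh1 lies at chr1:65170977-65170979 (minus strand), in exon 3 of 9.
Idh2 R140 codon: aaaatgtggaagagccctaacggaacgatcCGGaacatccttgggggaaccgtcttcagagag
Idh1 R132 codon: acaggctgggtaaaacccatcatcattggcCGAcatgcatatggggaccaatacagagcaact

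Neither targeted gene differed in RNA level between the groups beyond the spread of the pools. Idh2 was at 496, 474, 554 and 621 TPM (transcripts per 1000000 transcripts, a level corrected for gene length) in the Idh2R140Q pools 1 to 4, against 487, 503, 496 and 624 TPM in the Idh1R132H pools. The log2 difference of Idh2 was 0.02 ± 0.0450 (SE), with a limma adjusted p of 0.883. Idh1 was at 85.8, 83.2, 120.5 and 92.2 TPM in Idh2R140Q, against 113.9, 83.3, 122.1 and 95.8 TPM in Idh1R132H, and its log2 difference was −0.12 ± 0.112 (limma adjusted p = 0.720). The gene levels do not separate mutant from normal transcripts, so the labels of the 2 groups were not checked by them.

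The 8 libraries held 37.28 to 45.04 M assigned reads (M, 1000000 reads). Among markers of LSK cells, Kit, the receptor of the sort, had 370 to 487 TPM in Idh2R140Q and 341 to 438 TPM in Idh1R132H, and Cd34, a surface antigen of progenitors, had 496 to 549 TPM in Idh2R140Q and 458 to 524 TPM in Idh1R132H. Pools 1 and 3 of both groups had female and pools 2 and 4 male sex-linked RNA. Pool 4 stood apart in both groups: the rRNA-like transcript Gm23935 took 7.56% of TPM in Idh2R140Q pool 4 and 7.67% in Idh1R132H pool 4, against 11.4 to 12.5% in the other Idh2R140Q pools and 12.1 to 12.8% in the other Idh1R132H pools. Idh2R140Q pool 3 stood apart in neutrophil markers, which summed to 57.0 to 406 TPM over the Idh2R140Q pools with pool 3 at the top, against 78.0 to 157 TPM in Idh1R132H. The deviations of equally numbered pools from their group means correlated at 0.21, 0.20, 0.15 and 0.54 for pools 1 to 4 over the genes, and so the pool number was kept as a block.

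A single gene was called at an adjusted p under 0.05, which is 0.00712% of the genes tested. Fhl2, which encodes a LIM-domain cofactor that binds transcription factors and signalling proteins, was lower in Idh2R140Q than in Idh1R132H. An unadjusted p under 0.05 was reached by 1554 genes (11.1%), of which 1091 were higher (7.77%) and 463 lower (3.3%). Groups without overlap were seen for 121 higher genes (0.862%) and 76 lower genes (0.541%). After Fhl2 the smallest adjusted p was 0.0997. The log2 difference of 87.4% of the genes lay within 0.25 of 0, with a median SE of 0.0888, and 134 genes (0.954%) differed 2-fold or more. The median gene stood at 0.0402 on the log2 scale and 9046 genes (64.4%) lay above 0, so the lists below are to be read beside these values. By pair, the median gene stood at 0.00179, 0.0754, 0.0239 and 0.0589 in pairs 1 to 4. Signs of list medians in single pairs are given against 0. In the same limma fit, no gene was called in Idh2R140Q against WT, where 2813 genes (20%) had an unadjusted p under 0.05, and 1 gene (0.00712%) was called in Idh1R132H against WT, where 1092 (7.78%) did.

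Fhl2 lies on the minus strand at chr1:43123074-43196984 (mm10, ENSMUSG00000008136). It was at 2.49, 1.92, 1.65 and 2.85 TPM in the Idh2R140Q pools 1 to 4, against 6.32, 7.80, 6.41 and 8.17 TPM in the Idh1R132H pools. The groups did not overlap, and the lowest Idh1R132H pool had more than the highest Idh2R140Q pool. The means were 2.23 ± 0.541 TPM in Idh2R140Q and 7.18 ± 0.947 TPM in Idh1R132H (SD, n = 4 each), and the log2 difference was −1.35 ± 0.131 (SE), with a limma adjusted p of 0.00504. It was lower in 4 of 4 pairs, by −1.07, −1.59, −1.48 and −1.25 on the log2 scale.

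The WT pools had 1.12, 2.09, 1.85 and 2.84 TPM of Fhl2, which overlaps the Idh2R140Q pools. Against WT, Fhl2 stood at a log2 difference of 0.13 in Idh2R140Q, which was not called, and of 1.48 in Idh1R132H, where it was the called gene. Both of these values share the 4 WT libraries. The Fhl2 call rested on the other groups for the estimate of spread: with only the 8 libraries the adjusted p was 0.139, without the Idh2R172K libraries, whose group had 6570 genes (46.8%) called against WT, it was 0.117, and without Idh1R132H pool 2 or pool 3 it was 0.0520 or 0.0512. The difference itself stayed between −1.46 and −1.27 when any pool or pair was left out. Gm8210 overlaps Fhl2 on the opposite strand, and the strand setting of the read counting is not given in the sources used here.

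**Figure D1:**
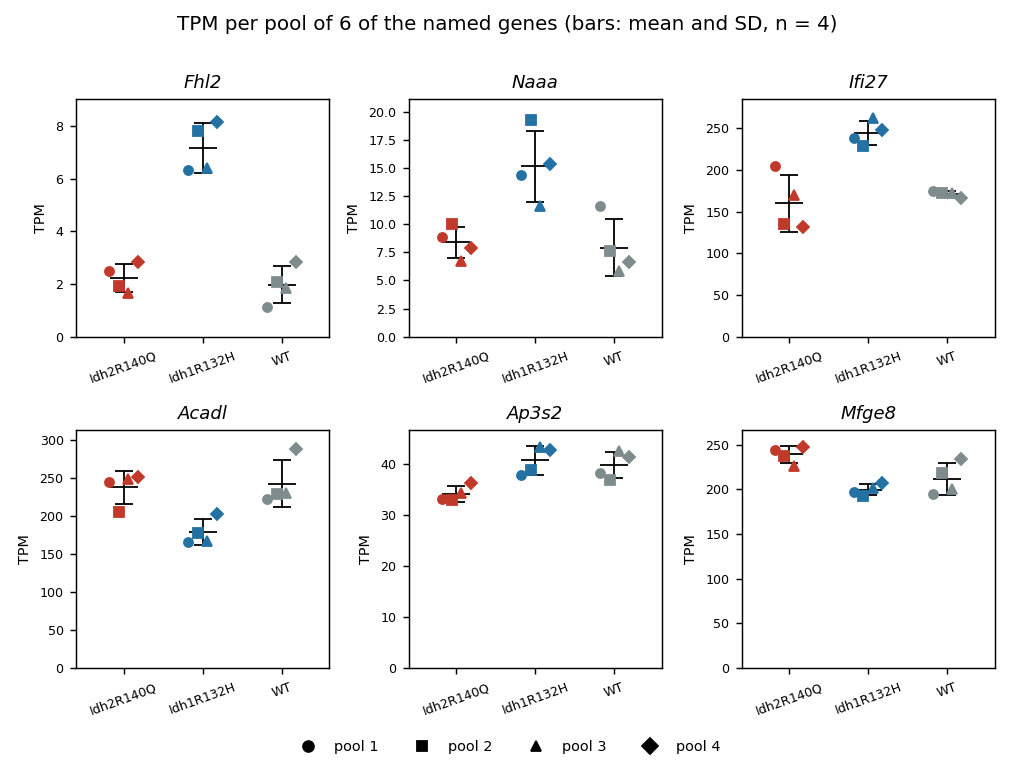
TPM of 6 named genes in the pools of Idh2R140Q, Idh1R132H and WT, with a mark per pool (shape gives the pool number) and bars for mean and SD (n = 4). Every Idh2R140Q pool lies below every Idh1R132H pool for Fhl2, Naaa, Ifi27 and Ap3s2, and above every Idh1R132H pool for Acadl and Mfge8. Of these genes Fhl2 was called.

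No other gene passed the adjusted threshold, and some of the named genes are given as values, not in order of p. Rabep2 had the smallest p of the named genes after Fhl2. It was higher in 4 of 4 pairs with overlapping groups (log2 difference 0.34 ± 0.0481, limma adjusted p = 0.0997). Naaa, a lysosomal amidase that hydrolyses N-acylethanolamines, had 8.86, 10.0, 6.75 and 7.92 TPM in Idh2R140Q, against 14.4, 19.3, 11.6 and 15.4 TPM in Idh1R132H. Its log2 difference was −0.78 ± 0.13 (limma adjusted p = 0.108), and the groups did not overlap. WT averaged 7.93 ± 2.58 TPM. By its means Naaa had the same order as Fhl2, with Idh1R132H above both Idh2R140Q and WT.

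Nnt, the mitochondrial transhydrogenase that makes NADPH, had 68.4, 75.5, 57.7 and 60.0 TPM in Idh2R140Q, against 39.8, 51.1, 42.2 and 45.8 TPM in Idh1R132H. The groups did not overlap, and the log2 difference was 0.54 ± 0.140 (limma adjusted p = 0.297). WT, at 43.2 ± 5.51 TPM, lay with Idh1R132H. The C57BL/6J substrain is known for a deletion within this gene, and whether the groups differed in it was not tested. Ddit4, a stress-induced inhibitor of mTOR signalling, was in the same order, with a mean of 31.7 ± 10.0 TPM in Idh2R140Q and 20.4 ± 5.16 TPM in Idh1R132H (log2 difference 0.59 ± 0.113, limma adjusted p = 0.213), against 19.3 ± 4.57 TPM in WT.

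Il18rap, a subunit of the interleukin-18 receptor, had 41.3, 32.0, 33.9 and 52.97 TPM in Idh2R140Q, against 22.6, 23.4, 25.2 and 27.7 TPM in Idh1R132H. No pool overlapped between the groups (log2 difference 0.65 ± 0.12, limma adjusted p = 0.213). Here Idh1R132H was the lower group relative to WT, which averaged 34.5 ± 8.56 TPM. Hist1h4m, a replication-dependent histone H4 gene, was at 0.193, 0.174, 0 and 0 TPM in Idh2R140Q, against 7.41, 6.87, 11.99 and 1.82 TPM in Idh1R132H (limma adjusted p = 0.237). WT pools had 2.03, 0, 0 and 2.50 TPM of it. The WT range held every Idh2R140Q value but only the lowest Idh1R132H value (1.82 TPM). Hist1h4m is a near-identical copy of other H4 genes, and how reads shared between copies were counted is not given in the sources used here.

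The median log2 difference was above that of all genes (0.0402) for lymphoid priming (0.202) and stem cell genes (0.155), and below it for erythroid (−0.223), granulocyte and monocyte (−0.207), interferon response (−0.168) and megakaryocyte (−0.104) genes. Scored per pool (median log2 level against the WT mean), the lymphoid, stem cell, granulocyte and monocyte, interferon and megakaryocyte lists overlapped between the groups, while the erythroid list ran to at most 0.105 in Idh2R140Q and at least 0.136 in Idh1R132H. Beside Fhl2, which is in the list of haematopoietic transcription factors, no member of any list was called. In bulk RNA, fewer cells of a type and less RNA per cell cannot be told apart.

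**Figure D2:**
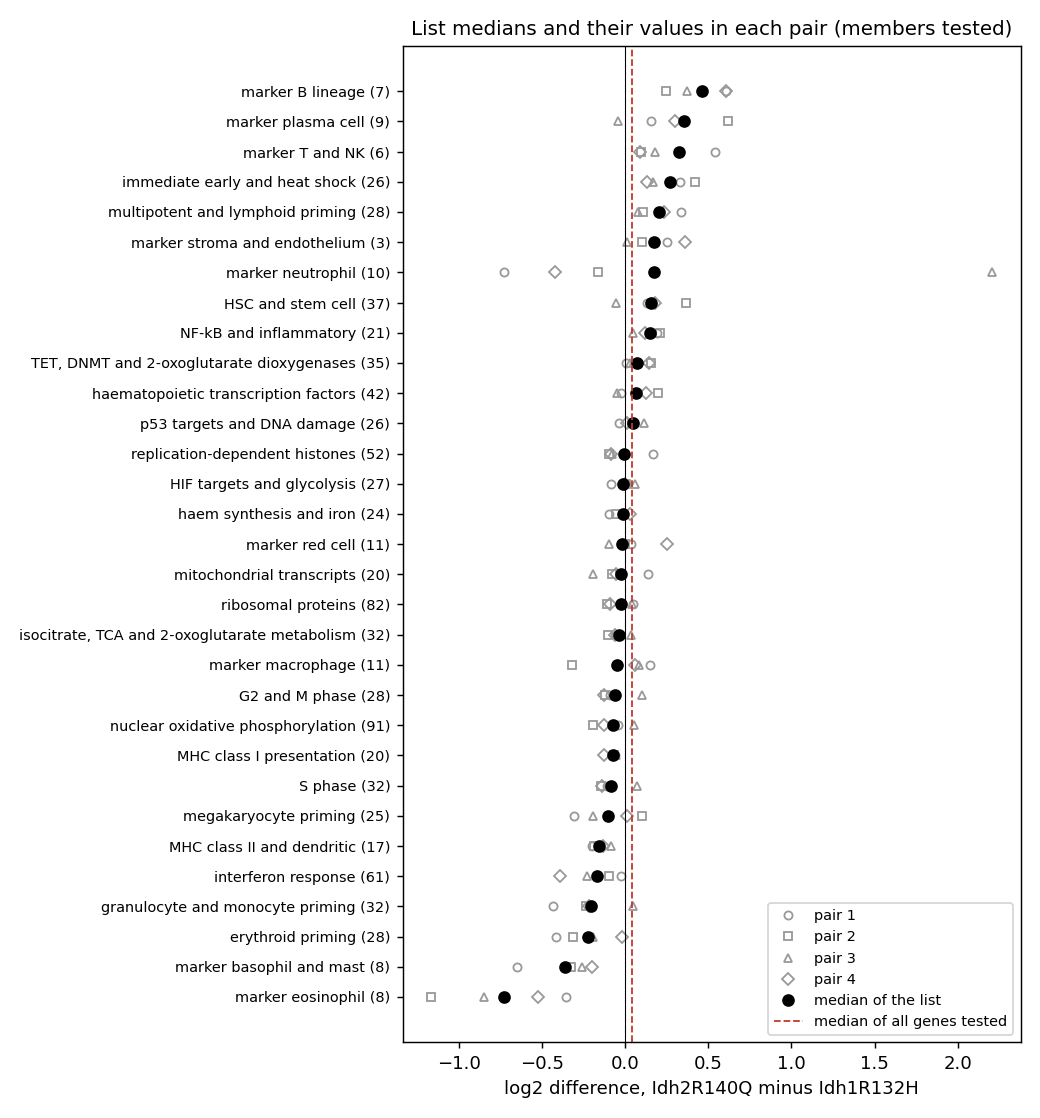
Median log2 difference (Idh2R140Q minus Idh1R132H) of each gene list, with the number of members tested in brackets; open marks are the medians in the single pairs, black points the median over the fit, the dashed line the median of all genes tested (0.0402). Lymphoid priming lies to the right of 0 in every pair and erythroid priming to the left, while neutrophil markers lie far to the right in pair 3 alone (2.21).

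Of the 28 lymphoid priming genes tested (of 29 listed), 27 lay above 0, against 64.4% of all genes, and 16 were higher in all 4 pairs, against 14.3% of all genes. None was called. The list median was 0.332, 0.107, 0.0762 and 0.232 in pairs 1 to 4, beside 0.00179, 0.0754, 0.0239 and 0.0589 over all genes. Dntt, the terminal transferase that adds nucleotides at antigen receptor joints, had 1121, 901, 899 and 1243 TPM in Idh2R140Q, against 510.3, 845, 713 and 973 TPM in Idh1R132H. It was higher in 4 of 4 pairs, but the groups overlapped (log2 difference 0.48 ± 0.130, limma adjusted p = 0.299). Flt3, the receptor tyrosine kinase of multipotent and lymphoid-primed progenitors, had 280.0, 278, 229 and 421 TPM in Idh2R140Q, against 206, 259, 221 and 335 TPM in Idh1R132H. Its log2 difference was 0.23 ± 0.0715 (limma adjusted p = 0.336), with pool 4 highest in both groups.

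Tespa1, a T cell receptor signalling protein, had the smallest p of the list, at a mean of 144 ± 22.3 TPM in Idh2R140Q and 118 ± 23.9 TPM in Idh1R132H (log2 difference 0.29 ± 0.0495, limma adjusted p = 0.124). Il7r, the interleukin-7 receptor, averaged 17.2 TPM in Idh2R140Q and 11.4 TPM in Idh1R132H. Rag2, a subunit of the V(D)J recombinase, averaged 12.2 TPM and 9.17 TPM in these groups. Ighm, the immunoglobulin mu chain, averaged 1502 TPM in Idh2R140Q and 810.0 TPM in Idh1R132H. Il7r, Rag2 and Ighm were chosen after their values were seen. Plac8 was the 1 member lower in Idh2R140Q (log2 difference −0.34), at a mean of 1169 TPM against 1442 TPM in Idh1R132H.

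Against WT, the lymphoid list median was 0.196 in Idh2R140Q and −0.00111 in Idh1R132H, beside medians over all genes of 0.0811 and 0.0388. Both share the WT libraries. Markers of B lineage cells moved with this list. All 7 tested of 12 lay above 0 (median 0.462). The sum of all 12 was 101 to 130 TPM in Idh2R140Q, against 90.1 to 107 TPM in Idh1R132H and 98.6 to 121 TPM in WT. Cd79a, a B cell receptor subunit, had 7.86, 9.12, 4.70 and 11.3 TPM in Idh2R140Q and 3.88, 5.86, 3.87 and 4.68 TPM in Idh1R132H. No B lineage marker was at 0 in all 8 libraries, and their part in the list was not tested.

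Of the 37 stem cell genes tested (of 40 listed), 32 lay above 0 and 9 were higher in all 4 pairs, which is 24.3% of them against 14.3% of all genes. The list median was 0.130, 0.365, −0.0584 and 0.180 in pairs 1 to 4, so that pair 3 went the other way. Procr, the endothelial protein C receptor used to sort stem cells, had 23.8, 36.9, 18.5 and 52.2 TPM in Idh2R140Q, against 19.1, 23.8, 17.4 and 40.3 TPM in Idh1R132H. It was higher in 4 of 4 pairs (log2 difference 0.34 ± 0.108, limma adjusted p = 0.344), and the spread between pool numbers was wider than that between the groups. Ndn, a growth-suppressing MAGE family protein, had 13.9, 16.01, 10.9 and 15.2 TPM in Idh2R140Q, against 8.65, 9.26, 8.44 and 10.7 TPM in Idh1R132H. The groups did not overlap (log2 difference 0.54 ± 0.118, limma adjusted p = 0.237), and WT averaged 10.6 ± 1.20 TPM.

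Robo4, an adhesion receptor of stem cells and endothelium, averaged 24.1 ± 5.77 TPM in Idh2R140Q and 18.4 ± 2.23 TPM in Idh1R132H (limma adjusted p = 0.230). WT averaged 23.4 ± 3.06 TPM, close to Idh2R140Q. Hlf, a transcription factor of stem cells, had 83.9, 122.3, 60.0 and 91.5 TPM in Idh2R140Q, against 73.7, 70.7, 70.8 and 71.2 TPM in Idh1R132H. The Idh2R140Q pools thus fell on both sides of Idh1R132H. Ly6a, which encodes the Sca1 antigen of the sort and is interferon-inducible, had 190.4, 171.9, 143 and 149 TPM in Idh2R140Q, against 191, 195, 197 and 196 TPM in Idh1R132H. It was lower in 4 of 4 pairs without overlap (log2 difference −0.26 ± 0.0907, limma adjusted p = 0.361), although the first pair differed by only −0.00651. WT averaged 168 ± 18.6 TPM.

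**Figure D3:**
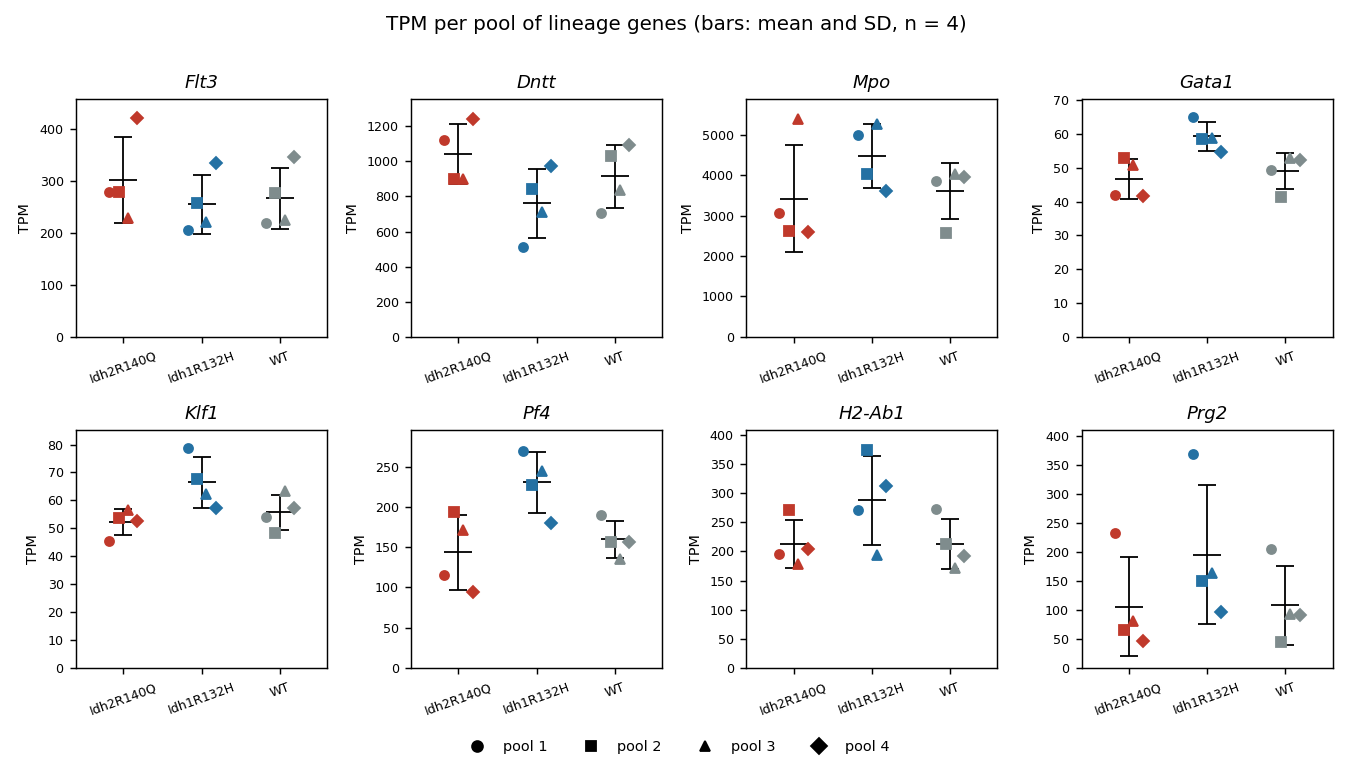
TPM of 8 lineage genes in the pools of Idh2R140Q, Idh1R132H and WT, with a mark per pool (shape gives the pool number) and bars for mean and SD (n = 4). Gata1 and Klf1 do not overlap between Idh2R140Q and Idh1R132H; Mpo of Idh2R140Q pool 3 (5392 TPM) lies above every Idh1R132H pool. None of the 8 genes was called.

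Of the 28 erythroid priming genes, all tested, 24 lay below 0, against 35.6% of all genes, and 11 were lower in all 4 pairs, against 4.67% of all genes. The list median was −0.418, −0.315, −0.192 and −0.0174 in pairs 1 to 4, with the last pair near 0, where the median of all genes was 0.0589. Against WT it was −0.0442 in Idh2R140Q and 0.199 in Idh1R132H, beside 0.0811 and 0.0388 over all genes, and so lay below the value of all genes in Idh2R140Q and above it in Idh1R132H. Gata1, the main transcription factor of red cell and megakaryocyte development, had 41.8, 52.8, 50.8 and 41.5 TPM in Idh2R140Q, against 65.2, 58.5, 58.8 and 54.7 TPM in Idh1R132H. The groups did not overlap (log2 difference −0.34 ± 0.106, limma adjusted p = 0.336). WT pools had 49.4, 41.5, 52.9 and 52.2 TPM, all below the Idh1R132H pools.

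Klf1, an erythroid transcription factor, had 45.6, 53.9, 56.5 and 52.8 TPM in Idh2R140Q, against 78.7, 67.8, 62.2 and 57.2 TPM in Idh1R132H. Again no pools overlapped (log2 difference −0.34 ± 0.108, limma adjusted p = 0.347), with a gap between them of under 1 TPM. Aqp1, a water channel of red cells, had 74.5, 73.7, 90.7 and 83.4 TPM in Idh2R140Q, against 103.6, 107, 108 and 107 TPM in Idh1R132H, again without overlap (log2 difference −0.40 ± 0.108, limma adjusted p = 0.299). Epor, the erythropoietin receptor, averaged 19.2 ± 3.19 TPM in Idh2R140Q and 25.2 ± 1.95 TPM in Idh1R132H (log2 difference −0.38 ± 0.0757, limma adjusted p = 0.230). Red cell markers did not follow the list: 5 of 11 lay above 0, and they summed to 86.8 to 101 TPM in Idh2R140Q, against 73.9 to 88.8 TPM in Idh1R132H. Genes of haem synthesis and iron had a median of −0.0172, with 15 of 24 below 0.

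Of the 25 megakaryocyte genes tested (of 27 listed), 17 lay below 0. The list median changed sign between pairs (−0.309, 0.101, −0.196 and 0.0119) and was −0.0203 without pair 1. It lay above the median of all genes in pair 2 (0.0754) and below it in pair 4 (0.0589). Pf4, a platelet chemokine, had 114.9, 194, 171 and 94.0 TPM in Idh2R140Q, against 270.0, 227, 245 and 180.5 TPM in Idh1R132H. It was lower in 4 of 4 pairs with overlapping groups (log2 difference −0.73 ± 0.249, limma adjusted p = 0.361). Itga2b, the CD41 integrin, averaged 97.6 ± 20.3 TPM in Idh2R140Q and 118 ± 8.51 TPM in Idh1R132H (log2 difference −0.29 ± 0.0770, limma adjusted p = 0.297).

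Of the 32 granulocyte and monocyte genes, all tested, 28 lay below 0 and 8 were lower in all 4 pairs, which is 25% of them against 4.67% of all genes. The list median was −0.438, −0.235 and −0.217 in pairs 1, 2 and 4, and 0.0462 in pair 3. Mpo, the myeloperoxidase of neutrophil granules, had 3071, 2619, 5392 and 2599 TPM in Idh2R140Q, against 4989, 4042, 5281 and 3608 TPM in Idh1R132H. Pool 3 was the highest of its group in both, and the other 3 Idh2R140Q pools lay below every Idh1R132H pool. The log2 difference was −0.44 ± 0.172 (limma adjusted p = 0.397). Elane, the neutrophil elastase, averaged 1347 ± 496 TPM in Idh2R140Q and 1864 ± 488 TPM in Idh1R132H (log2 difference −0.49 ± 0.295, limma adjusted p = 0.557). Csf3r, the receptor for G-CSF, was on the other side, with a log2 difference of 0.16 ± 0.0524.

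The neutrophil markers, whose sums by group are given above, differed in pair 3 by a median of 2.21 on the log2 scale, and by −0.728, −0.166 and −0.424 in pairs 1, 2 and 4. Ltf, the lactoferrin of mature neutrophils, was at 13.2 TPM in Idh2R140Q pool 3 and at 0.964 to 1.64 TPM in the other Idh2R140Q pools, against 0.688 to 1.72 TPM in Idh1R132H. Without pair 3, the granulocyte and monocyte list had a median of −0.280 with 26 of 32 genes below 0, while without pair 1 it was −0.132 with 25 of 32 below 0. Leaving out pair 3, the stem cell list had a median of 0.226 with 34 of 37 above 0, and the lymphoid list 0.245 with 25 of 28 above 0. The part of the mature cells in these lists was otherwise not tested.

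Most tested markers of eosinophils and of basophils and mast cells were lower in Idh2R140Q relative to Idh1R132H. All 8 eosinophil markers tested (of 9 listed) lay below 0 (median −0.731). All 9 summed to 79.4 to 360 TPM in Idh2R140Q, against 145 to 523 TPM in Idh1R132H and 74.5 to 291 TPM in WT. Il5ra was under the filter and higher in Idh2R140Q, at 0.63 to 1.29 TPM against 0.448 to 0.952 TPM in Idh1R132H. Prg2, the eosinophil major basic protein, had 232, 65.5, 80.5 and 46.0 TPM in Idh2R140Q, against 370.0, 151, 164 and 96.6 TPM in Idh1R132H. Pool 1 was highest in both groups, and Prg2 was lower in 4 of 4 pairs (log2 difference −0.98 ± 0.346, limma adjusted p = 0.361). Of 8 basophil and mast cell markers tested (of 11 listed), 7 lay below 0 (median −0.364). All 11 summed to 463 to 618 TPM in Idh2R140Q, against 612 to 763 TPM in Idh1R132H and 469 to 597 TPM in WT. Gata2, also listed as a marker of LSK cells, made 135 to 217 TPM of the sum in Idh2R140Q and 140 to 211 TPM in Idh1R132H. Il4 was the member above 0, at 1.2 to 3.28 TPM in Idh2R140Q and 0.747 to 1.59 TPM in Idh1R132H. Cma1, Tpsb2 and Mcpt4 were under the filter, with Cma1 at 0.256 to 2.31 TPM in Idh2R140Q and 0 to 0.378 TPM in Idh1R132H. Prss34, a basophil protease, had 132.9, 116.5, 90.9 and 140.7 TPM in Idh2R140Q, against 275, 174, 182 and 155 TPM in Idh1R132H (log2 difference −0.69 ± 0.208, limma adjusted p = 0.335), without overlap.

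Summed markers of other cells that a sort could carry overlapped between the groups. T and NK cell markers (4 of 6 tested above 0, median 0.323; all 13 summed) had 760 to 954 TPM in Idh2R140Q, against 784 to 1040 TPM in Idh1R132H. Most of that sum was Nkg7, at 702 to 880 TPM in Idh2R140Q and 734 to 973 TPM in Idh1R132H. Nkg7 was lower in 4 of 4 pairs and is also in the granulocyte and monocyte list. Cd3d, Cd3e and Cd3g were under 1 TPM in every pool, so the sum says little about T cells. Plasma cell markers (8 of 9 tested above 0, median 0.356) summed over all 10 listed to 473 to 770 TPM in Idh2R140Q, against 484 to 612 TPM in Idh1R132H. Of 13 markers of stroma and endothelium 3 passed the filter, and all 13 summed to 162 to 267 TPM in Idh2R140Q, against 141 to 206 TPM in Idh1R132H. Most of this sum was Pdgfrb (97.9 to 170 TPM in Idh2R140Q, 83.9 to 124 TPM in Idh1R132H) and Pecam1 (51 to 86.4 TPM and 49.1 to 74.8 TPM). Col1a1, Cxcl12 and Lepr were under 1 TPM in every pool, so the sum says little about stroma. No marker of these lists was at 0 in all 8 libraries.

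Interferon response genes were mostly lower in Idh2R140Q than in Idh1R132H. Interferons signal through surface receptors to transcription factors that bind interferon-stimulated response elements in promoters, and the induced genes include antiviral nucleases, GTPases and sensors. Of 61 listed genes, all tested, 56 lay below 0, against 35.6% of all genes, 27 were lower in all 4 pairs, against 4.67%, and 6 did not overlap between the groups, against 0.541%. At an unadjusted p under 0.05, 26 were lower and 2 higher, and none was called. The list median was −0.0286, −0.0966, −0.233 and −0.392 in pairs 1 to 4, and −0.104 with 52 of 61 below 0 without pair 4. Against WT it was 0.0909 in Idh2R140Q and 0.266 in Idh1R132H, beside 0.0811 and 0.0388 over all genes.

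Many of these genes hold the core of the response element within 250 bases before to 50 bases after the start. The letters GAAANNGAAA, searched on both strands, were found in 24 of the 46 members with a promoter in the RefSeq table of GRCm38.p6 (52.2%), against 3.99% of 27025 genes. The 24 had a median log2 difference of −0.163, with 21 below 0, and the 22 without these letters had a median of −0.137, with 20 below 0. The promoters of Ifit3 (chr19:34583279-34583578, plus strand) and Ifit1 (chr19:34640639-34640938, plus strand), 2 antiviral RNA-binding proteins of the list, show the layout, with matches in capitals in their reverse-strand form.
Ifit3: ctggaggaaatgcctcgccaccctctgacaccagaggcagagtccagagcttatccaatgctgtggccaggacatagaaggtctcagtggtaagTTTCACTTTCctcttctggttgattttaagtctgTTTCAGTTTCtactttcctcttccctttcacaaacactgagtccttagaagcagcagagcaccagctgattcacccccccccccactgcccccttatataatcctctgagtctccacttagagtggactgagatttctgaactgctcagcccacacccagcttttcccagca
Ifit1: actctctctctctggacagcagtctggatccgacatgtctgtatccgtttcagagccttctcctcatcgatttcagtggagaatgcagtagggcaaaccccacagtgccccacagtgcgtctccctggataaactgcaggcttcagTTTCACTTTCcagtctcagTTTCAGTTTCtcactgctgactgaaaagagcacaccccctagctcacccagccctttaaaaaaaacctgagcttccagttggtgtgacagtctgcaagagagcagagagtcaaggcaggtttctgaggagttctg

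Ifi27, an interferon-induced membrane protein, had 205, 135, 169.5 and 131.8 TPM in Idh2R140Q, against 239, 229, 262 and 248 TPM in Idh1R132H. There was no overlap (log2 difference −0.63 ± 0.0970, limma adjusted p = 0.0997). WT pools had 175, 173, 172.2 and 167 TPM, so Idh1R132H was above WT in each pool. Its neighbour Ifi27l2a had 109.3, 48.2, 80.8 and 38.2 TPM in Idh2R140Q, against 139, 95.2, 140.5 and 129 TPM in Idh1R132H (log2 difference −0.96 ± 0.209, limma adjusted p = 0.237). Both lie next to each other on chromosome 12, and reads shared between such related genes could have been split in the counting.

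Slfn2, a Schlafen protein of immune cell quiescence, averaged 18.7 ± 5.63 TPM in Idh2R140Q and 29.4 ± 4.85 TPM in Idh1R132H, against 18.6 ± 4.63 TPM in WT (log2 difference −0.66 ± 0.138, limma adjusted p = 0.237). Ifit1 had 15.9, 10.4, 10.4 and 13.2 TPM in Idh2R140Q, against 16.3, 10.96, 16.3 and 25.7 TPM in Idh1R132H (log2 difference −0.40 ± 0.219, limma adjusted p = 0.522), with pair 1 and pair 2 nearly level. Ifit3, which has the same motif count, averaged 3.16 TPM in Idh2R140Q and 5.79 TPM in Idh1R132H and was chosen after its values were seen. Irf1, a transcription factor induced by interferon gamma, was among the 5 members above 0, at a mean of 105 ± 20.7 TPM in Idh2R140Q and 89.0 ± 24.5 TPM in Idh1R132H (log2 difference 0.25 ± 0.0537, limma adjusted p = 0.237). The Ifit, Oas and Slfn families hold close copies, so the split of reads between their members is uncertain.

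**Figure D4:**
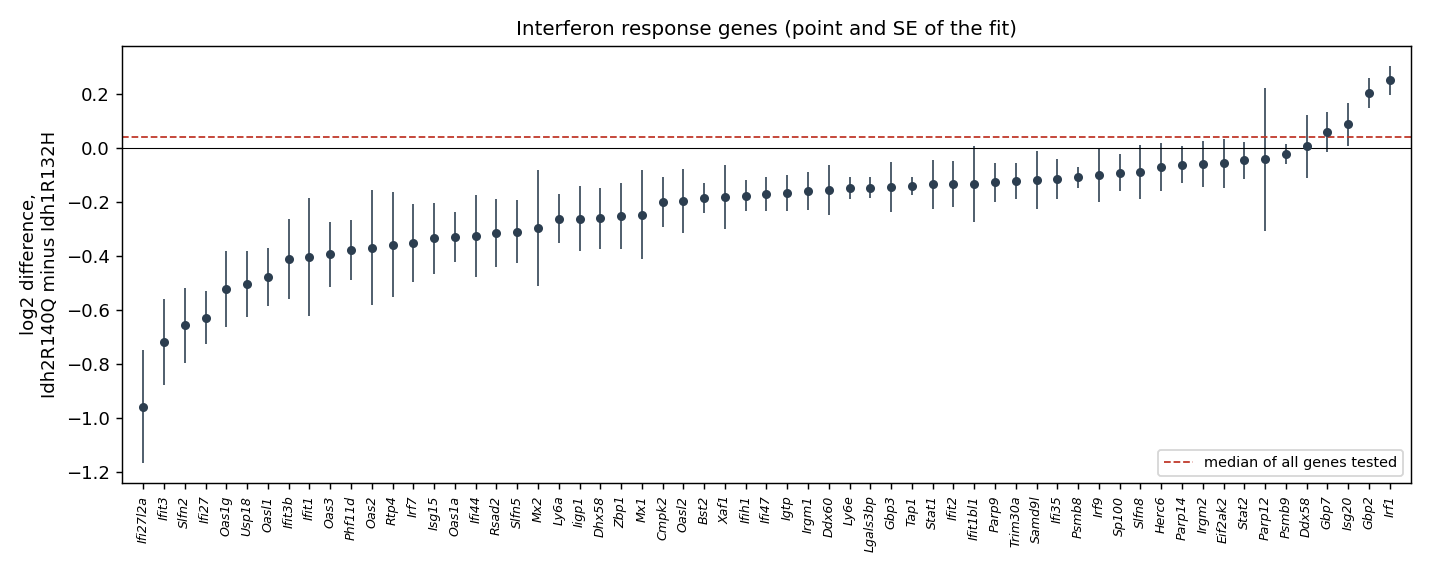
Log2 difference (Idh2R140Q minus Idh1R132H) of the 61 interferon response genes in rising order, with the SE of the fit as bars. The dashed line is the median of all genes tested (0.0402); 56 genes lie below 0, with Ifi27l2a lowest at −0.96 and Irf1 highest at 0.25. None was called.

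Antigen presentation genes were split. Of 17 MHC class II and dendritic genes tested (of 20 listed), 10 lay below 0 (median −0.160), led by the classical class II chains. H2-Ab1 had 195, 272, 178 and 204 TPM in Idh2R140Q, against 271, 375, 193 and 312 TPM in Idh1R132H, and was lower in 4 of 4 pairs with overlapping groups (log2 difference −0.41 ± 0.13, limma adjusted p = 0.335). H2-Eb1 averaged 59.1 TPM in Idh2R140Q and 94.2 TPM in Idh1R132H, and H2-Aa 69.9 TPM and 105 TPM in these groups. Of 13 macrophage markers 11 were tested and 8 lay below 0, and all 13 summed to 149 to 254 TPM in Idh2R140Q and 153 to 249 TPM in Idh1R132H. Of 20 MHC class I presentation genes, 17 lay below 0 with a median of −0.0769.

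Cell cycle genes were close between the groups. Of 32 S phase genes 30 lay below 0 (median −0.0887), and of 28 genes of G2 and M phase 24 did (median −0.0645), while both medians were above 0 in pair 3 (0.0701 and 0.1). Mki67, which marks dividing cells, averaged 86.7 TPM in Idh2R140Q and 87.5 TPM in Idh1R132H. Nuclear genes of oxidative phosphorylation leaned the same way, with 84 of 91 below 0 and a median of −0.0751, although the median was above 0 in pair 3 (0.0545) and was −0.0355 without pair 2. At an unadjusted p under 0.05, 27 were lower (29.7%, against 3.3% of all genes), while 6 were lower in all 4 pairs, which at 6.59% is near the 4.67% of all genes. Ndufb6, a complex I subunit, had 184, 186.5, 185 and 133 TPM in Idh2R140Q, against 202.5, 215, 192 and 154 TPM in Idh1R132H (log2 difference −0.15 ± 0.0337, limma adjusted p = 0.237). Ribosomal protein genes had a median of −0.0292 and mitochondrial transcripts one of −0.0261.

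Immediate early and heat shock genes were higher in Idh2R140Q by their median (0.266), with 22 of 26 tested above 0 and 10 higher in all 4 pairs, which is 38.5% of them against 14.3% of all genes. Junb, a subunit of the AP-1 transcription factor, had 97.7, 113.3, 83.8 and 325 TPM in Idh2R140Q, against 78.1, 70.5, 74.2 and 279 TPM in Idh1R132H (log2 difference 0.35 ± 0.102, limma adjusted p = 0.313). Pool 4 was far above the other pools in both groups, and it was at 301 TPM in WT pool 4 too. Zfp36, which destabilises mRNAs of inflammatory genes, had 203, 179, 117.5 and 449 TPM in Idh2R140Q, against 99.4, 111, 105 and 381 TPM in Idh1R132H. Of 21 genes of the NF-kB and inflammatory list, 16 lay above 0 (median 0.147). Nfkbia, the inhibitor of NF-kB that NF-kB itself induces, averaged 152 TPM in Idh2R140Q and 122 TPM in Idh1R132H (log2 difference 0.33 ± 0.0772, limma adjusted p = 0.271).

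The genes of 2-oxoglutarate metabolism and of its dioxygenases differed little. Of 32 genes of isocitrate, TCA cycle and 2-oxoglutarate metabolism, 24 lay below 0 with a median of −0.0362, and Nnt was the furthest from 0. Of 35 TET, DNMT and dioxygenase genes, 30 lay above 0 with a median of 0.0722. The list of haematopoietic transcription factors, which holds Fhl2, had a median of 0.0627, with 28 of 42 tested above 0 and Fhl2 called lower. Tet2 had 8.14, 9.91, 8.32 and 13.4 TPM in Idh2R140Q, against 8.11, 7.71, 8.51 and 11.1 TPM in Idh1R132H (log2 difference 0.14 ± 0.0891, limma adjusted p = 0.593). HIF targets and glycolysis had a median of −0.0118, p53 targets and DNA damage one of 0.0444, and replication-dependent histones one of −0.00823.

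Several of the genes with the smallest p lay beside the targeted loci. Within 2 Mb of the middle of Idh2, 12 of 49 genes (24.5%) had an unadjusted p under 0.05, and within 2 Mb of Idh1, 9 of 21 genes (42.9%) did, against 11.1% of all genes. On the same chromosomes but beyond 30 Mb the shares were 11.2% around Idh2 and 11% around Idh1. The window was chosen after the positions of these genes were seen. Within 10 Mb the shares were 24.7% around Idh2 and 15.7% around Idh1.

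Around Idh2, Ap3s2, a subunit of the AP-3 adaptor at chr7:79875325-79920649, had 33.01, 32.9, 34.2 and 36.1 TPM in Idh2R140Q, against 37.8, 38.8, 43.4 and 42.6 TPM in Idh1R132H (log2 difference −0.25 ± 0.0379, limma adjusted p = 0.0997). Mfge8, a secreted protein that bridges phagocytes to dying cells at chr7:79133768-79149060, had 244, 238, 226.5 and 248 TPM in Idh2R140Q, against 197, 193, 202 and 207.5 TPM in Idh1R132H (log2 difference 0.26 ± 0.0475, limma adjusted p = 0.205). Neither overlapped between the groups. Against WT, Ap3s2 stood at −0.21 in Idh2R140Q and 0.03 in Idh1R132H, and Mfge8 at 0.18 and −0.08. Hddc3, a phosphohydrolase gene chosen after its values were seen, had 20.1, 32.8, 56.2 and 61.2 TPM in Idh2R140Q, against 17.6, 19.7, 21.6 and 21.98 TPM in Idh1R132H.

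Around Idh1, Acadl, the long-chain acyl-CoA dehydrogenase of fatty acid oxidation at chr1:66830839-66863277, had 245, 205, 248 and 251 TPM in Idh2R140Q, against 165.5, 177, 167 and 203 TPM in Idh1R132H (log2 difference 0.41 ± 0.0632, limma adjusted p = 0.0997). WT averaged 242 ± 31.0 TPM, so Idh1R132H was the lower group. Lancl1, a glutathione-binding protein at chr1:67000517-67038872, averaged 39.5 ± 4.05 TPM in Idh2R140Q and 31.6 ± 1.87 TPM in Idh1R132H, against 40.5 ± 3.58 TPM in WT (limma adjusted p = 0.184). Neither overlapped between Idh2R140Q and Idh1R132H. Fhl2 lies on the same chromosome, at −22 Mb from Idh1, and Il18rap at −24.6 Mb. DNA differences linked to the alleles were not tested.

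**Figure D5:**
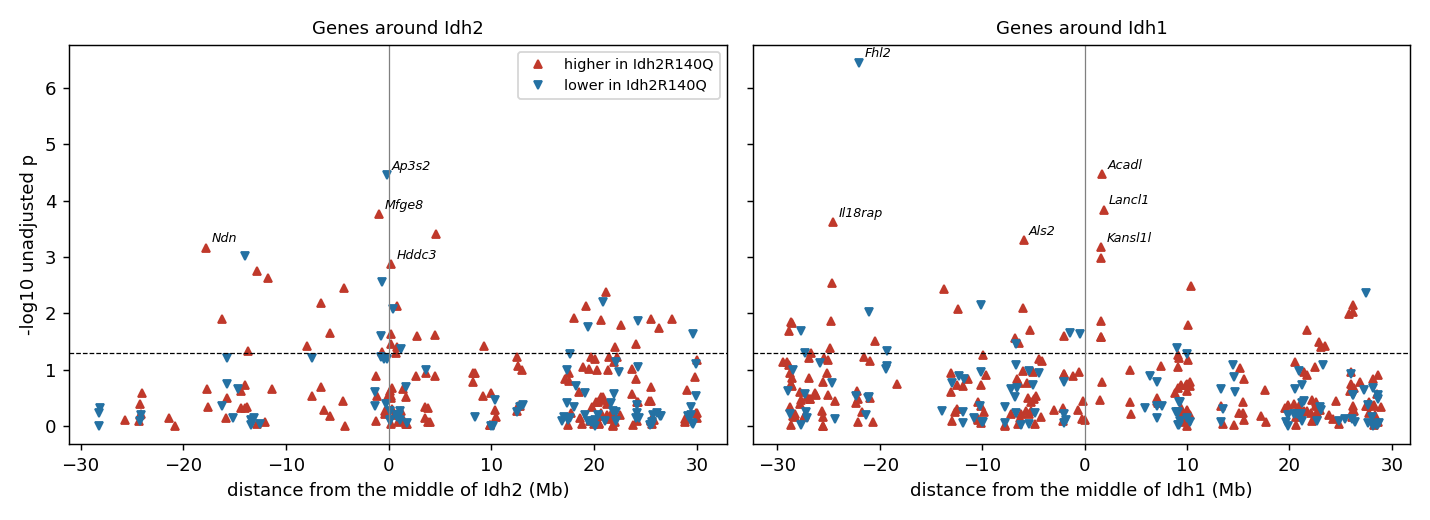
Minus log10 of the unadjusted limma p of each tested gene against its distance in Mb from the middle of Idh2 (left) and Idh1 (right), with genes higher in Idh2R140Q as upward and lower as downward triangles; the dashed line marks the unadjusted threshold of 0.05 used in the text. Ap3s2 and Mfge8 stand next to Idh2, Acadl and Lancl1 next to Idh1, and Fhl2 at −22 Mb from Idh1.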

How the data were processed

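Per the submitters' processing notes, the authors used Trim Galore, STAR and featureCounts with the mm10 genome. Versions, annotation release and strand setting are not given in the sources used here. The deposited values are TPM, and each library sums to 1000000. Gene names and coordinates come from GENCODE M21 on mm10, in which 45143 of 46078 IDs were found.

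Depth was recovered from TPM times exon length. Of the low values (up to 30 reads) 90.0 to 90.6% per library were then whole within 0.1 reads.

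limma 3.58.1 in R 4.3.3 was fitted to log2(TPM + 1) for the 16 libraries of WT, Idh1R132H, Idh2R140Q and Idh2R172K, with the pool number as a replicate block and a variance trend. Tet2KO was left out. Filtering used a mean of at least 1 TPM over the 8 libraries compared. P-values are 2-sided and adjusted by Benjamini and Hochberg over 14042 genes, and genes were called under 0.05. Log2 differences are on the log2(TPM + 1) scale, which understates changes of low genes. The script was tested on simulated data. Each library is a pool of 2 mice per the labels. The p-values rest on the spread between pools within the groups of the fit that remains after the pool-number block. Pool numbers were taken to pair the groups because every pair of equally numbered pools correlated at over 0.1 in its deviations. Pools of unequal number correlated at −0.31 to 0.13, and each pool was closest to the pool of its own number. The sex-linked RNA of equally numbered pools also matched. The labels do not say what a number shares.

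The comparison, its lists (22 of processes and 10 of markers) and its tests were chosen with earlier results of these data known. The named genes are Idh1, Idh2, Tet2, up to 10 rises and 10 falls, filled by the smallest p with 4 pair differences of one sign, leaving out sex-linked and unnamed genes, up to 3 members of each list, and fixed lineage genes. Not all are printed. Alternatives were another pseudocount, filter, scaling, trend or weights, other sets of libraries, no block, and each pool or pair left out. Python 3.11.15, pandas 2.3.3, numpy 2.4.6 and matplotlib 3.10.9 handled tables and figures.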

Additional observations from a re-analysis of the deposited data

Results flagged for a closer look

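Fhl2 differed between the alleles relative to the same WT libraries: the difference of the 2 effects, which is the difference between the groups themselves, was −1.35 on the log2 scale (limma adjusted p = 0.00504).

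Among 168 groups of 4 values examined, 22 held a pool that stood far from the other 3, where chance alone gives about 1 in 20. Idh2R140Q pool 3 was the highest of its group in neutrophil markers (score 2.25, the median log2 level of the list against the WT mean, others −0.0833 to 0.301), in the granulocyte and monocyte list (0.287, others −0.243 to −0.166), in Mpo (5392 TPM) and in Ltf (13.2 TPM). Idh2R140Q pool 2 was lowest in Acadl (205 TPM, others 245 to 251) and highest in H2-Aa (102.3 TPM, others 54.1 to 61.7).

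The other cases were pool 4. In Idh2R140Q it was highest in the immediate early and heat shock list (score 1.09) and in Junb (325 TPM), and lowest in Ndufb6 (133 TPM). In Idh1R132H it was highest in that list (0.920), Junb (279 TPM), Zfp36 (381 TPM) and Idh2 (624 TPM), and lowest in Plac8 (1139 TPM). Its list scores were also the highest of that group for stem cell genes (0.0895), S phase (0.188), G2 and M phase (0.307), NF-kB and inflammatory genes (0.421), TET, DNMT and dioxygenase genes (0.289) and p53 targets (0.305), and the lowest for mitochondrial transcripts (−0.497). The share of Gm23935 in that library was 7.67%.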

How the results depend on the processing

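Where 1 gene was called (0 higher, 1 lower), the 16 libraries without the replicate block also called 1, with 379 genes at an unadjusted p under 0.05 in place of 1554. The fits of the 8 libraries alone, with or without the block, called 1 higher and 0 lower gene (Gm25911). The fit without Idh2R172K, added after seeing the data, called 0 genes, with 1632 at an unadjusted p under 0.05, and so did a minimum of 5 TPM (1186), which removes Fhl2. No filter and no variance trend each called 2 genes, 1 of them higher. Library weights, which count divergent libraries less, called 272 genes, 188 higher and 84 lower; the lower ones are 0.598% of all genes, against 14 of 61 interferon response genes (23%; 1 more was higher) and 7 of 91 oxidative phosphorylation genes (7.69%). With a pool or pair left out, 0 to 4 genes were called, 0 to 1 higher and 0 to 3 lower. Without pool 2, 3 or 4 in all groups Fhl2 had an adjusted p of 0.331, 0.149 and 0.329. Without pool 1 in all groups there were 4 calls, Ifi27 among them.

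Median-of-ratios scaling placed the median gene at 0.00012 and quantile scaling at −0.00628, and 50% and 47.8% of the genes then lay above 0. The MHC class I median was −0.12 with median-of-ratios scaling and −0.12 to −0.0597 with a pool or pair left out. The other list medians of processes moved by less than the spread of the pools under every alternative run, and Fhl2 kept its sign in each that gave it a value. No list median changed sign under the other scalings. The neutrophil marker median, 0.171, was −0.0486 with a minimum of 5 TPM, −0.107 with library weights and −0.395 without Idh2R140Q pool 3, and the T and NK marker median, 0.323, was −0.0189 with no filter. Idh2 differed by −0.0197 with median-of-ratios scaling. Without pair 3 the stem cell median was 0.226 and without pair 2 it was 0.0863. The interferon median, −0.168, was −0.104 without pair 4, and the granulocyte and monocyte median, −0.207, was −0.132 without pair 1. The SE of a log2 difference comes from the limma fit. It rests on the spread within all 4 groups of the fit (16 libraries) after the pool-number block, moderated across genes. The SD given with a mean is that between the 4 pools of a group. Counting error was not computed separately.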

Other observations

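A pair of transcripts outside the named genes stood apart and were chosen after their values were seen. Hapln3, a link protein gene of the extracellular matrix that lies next to Mfge8 near Idh2 (chr7:79115102-79131018), was below the filter on low values. With no filter it was the higher gene called (log2 difference 1.3 ± 0.108, limma adjusted p = 0.00372). It had 1.08, 1.46, 2.19 and 1.34 TPM in Idh2R140Q, against 0, 0, 0.0518 and 0 TPM in Idh1R132H, and 0.0973 to 0.171 TPM in WT. In Idh2R172K, whose allele lies in the same gene as Idh2R140Q, it had 0.515 to 0.814 TPM.

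Gm25911, annotated as a gene of 56 bases at chr1:167340369-167340424, had 2031, 2076, 1836 and 1231 TPM in Idh2R140Q, against 16.4, 10.4, 6.62 and 1.45 TPM in Idh1R132H. The levels fell into a high and a low class in the other groups too: 2 of 4 WT pools, 2 of 4 Idh2R172K pools and 2 of 4 Tet2KO pools were above 1000 TPM. Its log2 difference of 7.81 had a limma adjusted p of 0.297 in the fit of 16 libraries.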
